A study of Mus musculus with 4 samples.

Results

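Differentiating 3T3-L1 cells given the drug tranylcypromine were set against differentiating 3T3-L1 cells given an siRNA against Rfk, gene by gene, with 1 array a side. 3T3-L1 is a mouse fibroblast line whose cells become fat cells when induced with insulin, dexamethasone and isobutylmethylxanthine. The values are MAS5 signals, a linear brightness per probe set computed by the authors, and each difference is the log2 signal with tranylcypromine minus the log2 signal with rfk siRNA. For a gene with several probe sets, the one brightest on average over the series' 4 arrays in log2 signal stood for it. Of 18194 genes named on the array, 10788 were compared, those with a mean log2 signal at or above the median probe set (50.9 as a signal), and 7406 lay below that filter.

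Per the labels, preadipocytes in medium with 25 mM glucose and 10% serum were transfected with siRNA against Rfk, with siRNA against Aof2 (now Kdm1a) or with the control siRNA siGL3, induced 24 h later and harvested 24 h after induction. The tranylcypromine was added to the induction medium of a further culture, for which the labels mention no siRNA. The comparison therefore holds the drug, the loss of Rfk and a possible difference in transfection at once, and these cannot be told apart. No dose of tranylcypromine is given in the sources used here. There were no replicates, so no test between the cultures was possible, and "higher" and "lower" describe these arrays only.

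Tranylcypromine inhibits LSD1, the histone demethylase encoded by Kdm1a, and the monoamine oxidases, all of which carry flavin adenine dinucleotide (FAD). Riboflavin kinase, the product of Rfk, phosphorylates vitamin B2 to flavin mononucleotide, from which the cell makes FAD. The drug and the siRNA thus meet the same enzyme from different sides, the former at its flavin and the latter at the supply of that flavin.

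The array of cells with tranylcypromine had the higher signals for genes of surface and secreted proteins (Msln, Slurp1, Cystm1) and for the keratin gene Krt19. It was also higher for most subunits of the lysosomal proton pump, for enzymes of cholesterol synthesis and for the triglyceride lipase gene Pnpla2. The array of cells with rfk siRNA had the higher signals for the matrix genes Dcn and Has2, the nuclear RNA Malat1 and the stress gene Sesn2. Id4 and Bambi were also higher there, while Id1, Id2 and Id3 leaned the other way. By small amounts, most DNA replication genes were higher with rfk siRNA too. Fat cell transcription factors, ribosomal proteins and interferon-responsive genes had medians close to 0.

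At least 2-fold higher with tranylcypromine were 246 genes (2.28% of those compared), and 146 were at least 2-fold lower (1.35%). At a limit of 1.5-fold the counts were 849 (7.87%) and 599 (5.55%), and 5465 genes (50.7%) lay above the rfk siRNA array by any amount. Among the 6873 bright genes, those with a mean signal of at least 414, 62 were 2-fold higher (0.902%) and 34 were 2-fold lower (0.495%). The median log2 difference of all compared genes was 0.005, and the middle 90% of them lay between -0.61 and 0.73. A list of genes is read against these shares and this median below. Of the 246 higher genes 69 had their dimmer signal below the filter, as had 44 of the 146 lower ones, and the size of such a difference is not reliable.

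Both arrays had a mean signal of 500.003 after the lowest and highest 2% of probe sets were left out; the deposited signals had thus been scaled to a common level. Their median signals were 55.6 and 53.4. Hybridisation controls, with 18 probe sets, differed by -0.32 to 0.04, with a mean of -0.096. The 24 probe sets of the poly-A controls differed by -0.43 to 0.05, with a mean of -0.18. Over the 5228 genes with several probe sets above the filter, the differences of a gene's probe sets spanned a median of 0.35. The 3' over 5' signal ratios were 1.28 with tranylcypromine and 1.25 with rfk siRNA for beta-actin, and 0.836 and 0.841 for Gapdh. Of 12 markers of the fibroblast lineage 10 were compared, among them Vim at 0.11, Pdgfra at -0.05 and Col1a2 at -0.06, and their median difference was close to 0. Equal scaling means that fewer cells of a kind and less RNA per cell cannot be told apart here.

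**Figure D1:**
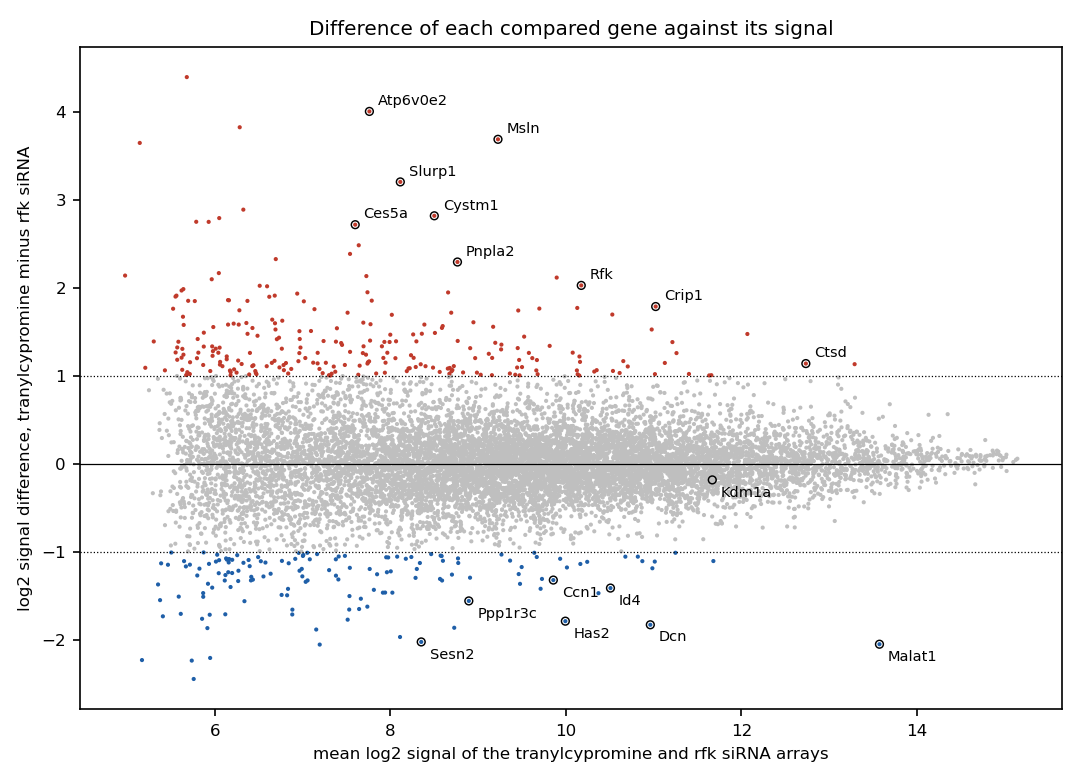
Log2 signal difference (tranylcypromine minus rfk siRNA, vertical) against the mean log2 signal of the 2 arrays (horizontal) for 10788 compared genes, 1 array per group. Red points are the 246 genes at least 2-fold higher with tranylcypromine, blue points the 146 at least 2-fold lower, dotted lines mark 2-fold, and circled genes are named in the text. The spread is wider among dim genes than among bright ones.

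Rfk itself was the first check of the labels. Its signals were 2122 with control siRNA, 2018 with aof2 siRNA, 573 with rfk siRNA and 2334 with tranylcypromine, and from here on the signals of a gene are given in that order. The rfk siRNA array stood alone at the low end and the other 3 lay close together, so that Rfk was 4.07-fold higher with tranylcypromine, and its 3 probe sets gave 1.67 to 2.06. The siRNA was directed at this gene, so its difference checks the label and says nothing of the drug. Kdm1a, the target of tranylcypromine, had signals of 3494, 681, 3470.5 and 3054, low with aof2 siRNA alone, and differed by -0.18. Maoa, the monoamine oxidase measured here, had signals of 2873, 2738, 2496 and 2827 and differed by 0.18, while Maob lay below the filter. The mRNAs of the drug's targets were thus at similar levels on both arrays, which says nothing of enzyme activity.

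Other genes of flavin supply and use differed little. Flad1, the synthase that turns flavin mononucleotide into FAD, had signals of 394, 392, 374 and 448 and a difference of 0.26. Slc25a32, a mitochondrial carrier linked to FAD import, stood at -0.28, and Enpp3, an ectonucleotidase, at 0.40. Of 43 compared genes for FAD or FMN dependent enzymes, 28 lay above the rfk siRNA array and 15 below, with a median of 0.13, and 3 were 1.5-fold higher against 1 lower. The highest were Aifm2, an oxidoreductase that protects membranes from lipid peroxidation, at 0.70, and Acadl, an acyl-CoA dehydrogenase, at 0.60. The lowest were Mical1, which oxidises actin, at -0.61, and Qsox2, a sulfhydryl oxidase, at -0.46. Xdh, the xanthine oxidoreductase gene, had signals of 5382, 7783, 5040.4 and 7644, so that the tranylcypromine and aof2 siRNA arrays were the high pair and the control and rfk siRNA arrays the low pair.

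Partners of LSD1 and other histone demethylases had a median of -0.10 over 29 compared genes, with 12 above and 17 below. Rest, the repressor of neuronal genes that recruits the LSD1 complex, had signals of 1286, 1576, 1906 and 1093 and stood at -0.80, but its 3 probe sets ranged from -0.80 to 0.27. Hdac1, a histone deacetylase of the same complex, was at -0.53, with the tranylcypromine array lowest of the 4 at 2337. At the other end were Hmg20b at 0.65 and Gse1 at 0.60, both components found with the complex. Rcor1, which encodes the scaffold CoREST, differed by 0.24. Among 14 compared genes of amine oxidases and polyamine metabolism the median was 0.04. Aoc3, the vascular adhesion protein amine oxidase of fat cells, was lower with tranylcypromine, with signals of 304, 339, 268 and 151 and a difference of -0.83. Loxl4, a lysyl oxidase, was at -0.73 with a further probe set at 0.45, whereas Loxl1, which crosslinks elastin, was at 0.65 and Sat1, which acetylates polyamines, at 0.47.

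The largest differences in favour of tranylcypromine, among genes with a signal of at least 414 on the brighter array, belonged to a proton pump subunit and to surface and secreted proteins. Atp6v0e2, a small subunit of the membrane part of the pump, had signals of 116, 204, 54.2 and 869, which is 16-fold higher with tranylcypromine. Its rfk siRNA signal was just above the filter and was the lowest of the 4, and the tranylcypromine signal stood far above the other 3. Msln, the surface glycoprotein mesothelin, had signals of 194, 846, 167 and 2149.6 and was 12.9-fold higher. Slurp1, a small secreted protein of skin, had signals of 82.2, 445, 91.3 and 840.5 and was 9.21-fold higher. For both of these genes the control and rfk siRNA arrays were close together and low, the aof2 siRNA array lay between, and the tranylcypromine array was highest.

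In further genes too the tranylcypromine array was highest, the aof2 siRNA array next and the other 2 low. Cystm1, a small membrane protein, had signals of 115, 458, 136 and 962 and was 7.05-fold higher. Krt19, a keratin, had signals of 100.1, 267, 101 and 444 and was 4.38-fold higher. Crip1, a LIM-domain protein, had signals of 893, 3568, 1121 and 3867 and was 3.45-fold higher, here with the aof2 siRNA array almost level with tranylcypromine. AU021092 had signals of 57.7, 243, 81.5 and 426, Capn5, a calpain protease, 192, 309, 109 and 419.8, and Nuak2, a kinase of the AMPK family, 179, 369, 116 and 420.2. These 3 differed by 2.38, 1.95 and 1.85. Each of the genes in this paragraph had 1 probe set above the filter.

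Other high genes had another order. Ces5a, a carboxylesterase, had signals of 414, 399, 75.7 and 497, so that the rfk siRNA array was the one that stood apart and the difference of 2.72 came from its low signal. Rgcc, a regulator of the cell cycle, had signals of 465, 643, 206 and 793, again lowest with rfk siRNA, and its 2 probe sets gave 1.95 and 2.07. Zap70, a kinase best known from T cells, had signals of 352, 37.7, 84.4 and 472, high with control siRNA and tranylcypromine and low with both other siRNAs. Flnc, an actin crosslinker of muscle and fibroblasts, had signals of 703, 479.8, 458 and 1982, highest with tranylcypromine alone, and its probe sets gave 2.12 and 0.47.

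A list of 24 epithelial-type genes had been drawn from earlier results on these same arrays, so its counts are a description and not independent evidence. Of its 14 compared members 11 lay above the rfk siRNA array, 8 of them by 2-fold or more, with a median of 1.34. Besides the genes above, Tesc, a calcium-binding protein, had signals of 123, 498, 218 and 609 and stood at 1.49, and Scrn1, secernin, had 206, 813, 518 and 1191 and stood at 1.20. Tppp3, a tubulin-binding protein, was at 0.53. Not all members followed. Aldh1a7, an aldehyde dehydrogenase, had signals of 834, 3708, 3039 and 1406 and stood at -1.11, with both specific siRNAs above tranylcypromine, and Calml4, related to calmodulin, was at -0.51. Fam107a, an actin-associated stress gene, had signals of 199.6, 2055, 1003 and 947, level on the 2 arrays compared here, and Epcam, an epithelial adhesion molecule, had 202, 285, 227 and 228, level on both as well.

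Defining markers of epithelial and mesothelial cells were mostly too dim to compare. Of 12 such markers 3 passed the filter, and their summed signals were 373, 621, 396 and 738. Krt19 held most of the difference between rfk siRNA and tranylcypromine, since Epcam was level on these arrays and Krt5 had signals of 70.2, 68.5, 67.7 and 66.4. Cdh1, the epithelial cadherin, Krt8, Krt14, Krt18, Cldn3, Cldn4 and the mesothelial genes Upk3b, Lrrn4 and Wt1 lay below the filter, with no signal above 55.4 on any array. Of neuronal, endothelial and skeletal muscle markers, 2 each passed the filter. With rfk siRNA and tranylcypromine their summed signals were 138 and 179, 156 and 164, and 236 and 158.

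At the low end, the tranylcypromine array held less signal for a nuclear RNA and for genes of stress, glycogen and matrix. Malat1, a long non-coding RNA of the nucleus, had signals of 21500.0, 25502, 24819.8 and 5989.5, and the tranylcypromine array stood 4.14-fold below rfk siRNA. Its 7 probe sets ranged from -3.09 to 0.50, with 6 below 0 and 1 above. Without probe sets that may match several transcripts, the brightest of those left gave 0.50 and the others -0.56 and -1.32. Sesn2, a stress-inducible inhibitor of growth signalling, had signals of 593, 597, 659 and 162 and was 4.07-fold lower, with a further probe set at -0.54. Both genes were at similar levels on the other 3 arrays.

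Ppp1r3c, which targets a phosphatase to glycogen, had signals of 1133, 657, 817 and 277 and was 2.95-fold lower. Fas, a death receptor, had signals of 777, 505, 610.3 and 243 and was 2.51-fold lower. Cd1d1, which presents lipids to T cells, and Abcc3, an organic anion pump, stood at -1.42 and -1.47, the former with a further probe set at -0.47. In all 4 the tranylcypromine array was the lowest. Apcdd1, a Wnt inhibitor, was at -1.31, with 4 probe sets from -1.31 to -0.45, and Pappa, a protease that releases insulin-like growth factors, was at -1.36, with probe sets from -1.36 to 0.99.

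For another group of low genes the rfk siRNA array was the highest of the 4, and in some of them the tranylcypromine array was also the lowest. Dcn, the proteoglycan decorin, had signals of 1798, 1592, 3763 and 1058, and the rfk siRNA array lay above the other 3 while tranylcypromine was lowest, a 3.55-fold difference. Id4, which blocks helix-loop-helix transcription factors, had signals of 783, 1560.4, 2377 and 893 and was 2.66-fold lower, although its tranylcypromine signal was near that of the control. Ccn1, a matricellular protein, had signals of 428, 742, 1467 and 587, with 4 probe sets from -1.51 to -0.67. Its tranylcypromine signal, like that of Id4, lay above control. Chst2, a sulfotransferase of cell-surface sugars, had signals of 272, 169.8, 547 and 139.7 and stood at -1.97. Elavl2, an RNA-binding protein of the Hu family, had signals of 484, 444, 809 and 222, and all 4 probe sets lay between -2.30 and -0.74. Lpar4, a receptor for lysophosphatidic acid, was at -1.47 with signals of 1295, 2043, 2206 and 796, the aof2 siRNA signal being near that with rfk siRNA. For Elavl2 and Lpar4 the tranylcypromine array was the lowest.

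**Figure D2:**
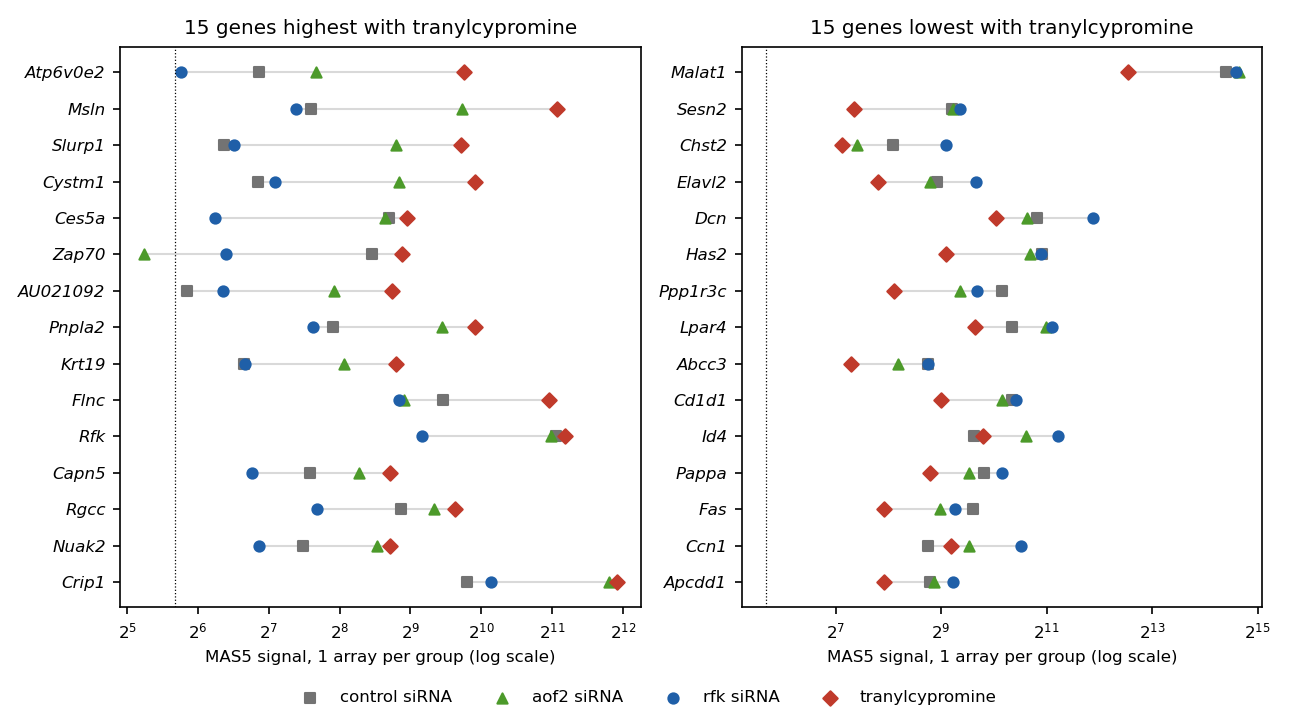
MAS5 signals (horizontal, log scale) on the 4 arrays, 1 per group, for the 15 genes highest and the 15 lowest with tranylcypromine against rfk siRNA among genes whose brighter array of the 2 reached 414. The dotted line is the filter at 50.9. For Msln, Slurp1, Cystm1 and Krt19 the aof2 siRNA array lies between rfk siRNA and tranylcypromine, and for Malat1, Sesn2 and Has2 tranylcypromine stands apart from the other 3.

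The control siRNA and aof2 siRNA arrays show on which side of the comparison such a gene stood apart. Of the 246 genes higher with tranylcypromine, 99 (40.2%) had the aof2 siRNA array nearer to tranylcypromine and the control nearer to rfk siRNA on the log2 scale, and 15 (6.1%) had the opposite. Both arrays were nearer to tranylcypromine in 73 (29.7%) and nearer to rfk siRNA in 59 (24.0%). Of the 146 lower genes, both were nearer to rfk siRNA in 69 (47.3%), the aof2 siRNA array alone was nearer to tranylcypromine in 32 (21.9%), the control alone in 19 (13.0%) and both in 26 (17.8%). The genes were chosen on the tranylcypromine and rfk siRNA arrays, so these counts carry no test. The same split was not counted over all compared genes, so these shares have no background and give no measure of likeness between arrays. Over all compared genes the tranylcypromine array was the highest of the 4 in 27.7% and the lowest in 28.1%, and the rfk siRNA array in 25.1% and 27.0%.

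**Figure D3:**
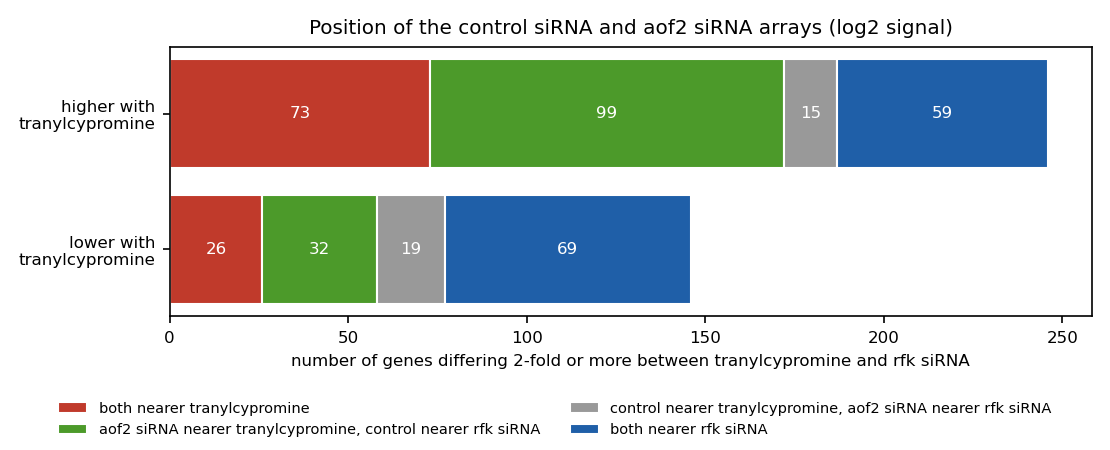
Number of genes (horizontal) at least 2-fold higher or lower with tranylcypromine than with rfk siRNA, split by which of these 2 arrays the control siRNA and aof2 siRNA arrays lay nearer to in log2 signal. The largest class is 99 genes among the higher ones (aof2 siRNA nearer tranylcypromine, control nearer rfk siRNA) and 69 among the lower ones (both nearer rfk siRNA).

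In 816 of the 6873 bright genes the tranylcypromine array was the highest and the rfk siRNA array the lowest of the 4. In a similar number, 793, the order was reversed. The first group was led, by the distance of both arrays from the other pair, by Cp, Rasl12, Hspa4l, Tes, Rab3ip, Ampd3, Cavin2 and Gas2l3. Cp, the copper-carrying ferroxidase ceruloplasmin, had signals of 2178, 2026, 1189 and 3422, and its 6 probe sets all lay between 0.80 and 1.61. Tes, a focal adhesion protein, had signals of 1622, 1827, 1139 and 2449 and stood at 1.10. Cavin2, a coat protein of caveolae, had 3430.2, 3297, 2244 and 4498 and was 2-fold higher. Ampd3, an AMP deaminase, had signals of 1082, 1992, 821 and 2660.1 and stood at 1.70. The second group was led by Elavl2 and Dcn, given above, and by Gm1673, Pde4b, Rap2b, Irx5, Csgalnact2 and Tbc1d4. Rap2b, a small GTPase, had signals of 678, 832, 1089.7 and 457 and stood at -1.25. Tbc1d4, which restrains the insulin-responsive glucose transporter, had signals of 646, 629.7, 928 and 495 and stood at -0.91. Pde4b, a phosphodiesterase that degrades cAMP, had signals of 707, 600.3, 966 and 450.1 and stood at -1.10.

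Genes of the lysosome and of its proton pump lay mostly above the rfk siRNA array. The pump, a V-type ATPase, acidifies the lysosome so that its hydrolases can work. Of 28 compared genes 25 were above and 3 below, with a median of 0.36, 9 were 1.5-fold higher and 1 lower, and 3 were 2-fold higher. The tranylcypromine array was the highest of the 4 in 22 of them and the rfk siRNA array the lowest in 18. The list had been chosen with earlier results of these arrays known, Atp6v0e2 among them.

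Among the pump's membrane subunits, Atp6v0b had signals of 1304, 1431, 1269 and 2335 and stood at 0.88, with 3 probe sets from 0.75 to 0.88. Atp6v0d1 had signals of 5271, 5995, 4173 and 6670.3 and stood at 0.68. Among the subunits of the catalytic part, Atp6v1g1 had 10242, 11847, 7752 and 12109, Atp6v1d 1879, 2294, 1495 and 2316 and Atp6v1e1 5779, 6165, 4636 and 7085. In these 3 the rfk siRNA array was lowest and the differences were 0.64, 0.63 and 0.61. Atp6v1a, the catalytic subunit, stood at 0.25 and Atp6v1h, a regulatory one, at 0.07. Among hydrolases, Ctsd, the aspartic protease cathepsin D, had signals of 4958, 7017, 4595 and 10112, highest with tranylcypromine, next with aof2 siRNA and similar on the others, a 2.20-fold difference. Neu1, the lysosomal sialidase, had signals of 259.8, 298, 246 and 524 and was 2.13-fold higher, and Hexa, a hexosaminidase, was at 0.40. Ctsb, another cathepsin, stood at 0.27, but its 5 probe sets ranged from -0.79 to 1.21. The 3 members below were Tfeb, the transcription factor of lysosomal genes, at -0.64 with signals of 94.8, 75.6, 80.6 and 51.9, the acid lipase gene Lipa at -0.21, and Lamp2, a membrane protein, at -0.12.

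Macrophages are rich in lysosomes, and their markers were looked at beside this list. Of 12 markers 3 passed the filter, with summed signals of 414, 432, 317 and 566. Cd14, a receptor for bacterial lipopolysaccharide, had signals of 264, 277, 159.8 and 367 and stood at 1.20, and Csf1r and Cx3cr1 stood at 0.24 and 0.49. Ptprc, Adgre1, Itgam, Lyz2, Mrc1, Fcgr3, Aif1 and Cd68, defining markers of these cells, lay below the filter. The part of this in the lysosomal result was not tested.

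Promoters were looked at for the element of TFEB, the transcription factor of lysosomal genes. A list of such genes can hold this element whatever the arrays show, so its share describes the list and not the difference. Promoter windows were available from RefSeq, build GRCm38.p6, for 23 of the 28 genes. They ran from 250 bases before to 50 bases after the gene start. The extended E-box TCACGTGA, the palindromic centre of the element that TFEB-family factors are known to bind, was searched on both strands and stood in 6 of the 23 (26.1%), against 2.38% of 8778 compared genes and 0.974% of all 32851 windows. Its core CACGTG, which every extended site contains, stood in 10 of the 23 (43.5%), against 11.8% of compared genes and 7.15% of windows. It also stood in 3 of 8 sterol control genes (37.5%), 2 of 6 lipid droplet genes (33.3%) and 3 of 14 cholesterol synthesis genes (21.4%). A match is a description and not a bound site. The extended site stood in Ctsd, Atp6v0d1, Mcoln1, Ctsa, Atp6v0e and Atp6v1a, whose differences were 1.14, 0.68, 0.59, 0.40, 0.33 and 0.25. No match was found in the windows of Atp6v0e2 and Neu1, the other members with 2-fold differences. Among the genes called 2-fold higher with a promoter window 5 of 176 held it (2.84%), and among those called lower 4 of 105 (3.81%), both near the 2.38% of all compared genes. Windows around the site are shown for a member with a 2-fold difference (Ctsd), a calcium channel of the lysosome with a smaller one (Mcoln1) and the catalytic pump subunit (Atp6v1a), with the extended E-box in capitals, and for Atp6v0b, which holds the core alone, with 1 core in capitals and a further one in lower case:
Ctsd (chr7:142387879-142387966, minus strand): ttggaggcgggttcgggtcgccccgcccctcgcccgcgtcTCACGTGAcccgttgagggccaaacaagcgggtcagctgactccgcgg
Mcoln1 (chr8:3500433-3500520, plus strand): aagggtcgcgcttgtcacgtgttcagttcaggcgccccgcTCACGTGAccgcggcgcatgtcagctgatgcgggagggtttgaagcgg
Atp6v1a (chr16:44139344-44139431, minus strand): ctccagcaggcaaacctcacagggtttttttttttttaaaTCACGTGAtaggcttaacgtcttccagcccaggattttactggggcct
Atp6v0b (chr4:117887320-117887405, minus strand): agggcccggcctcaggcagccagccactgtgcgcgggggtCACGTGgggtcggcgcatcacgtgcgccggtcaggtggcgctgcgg

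Enzymes of cholesterol synthesis, which build sterol from acetyl units in the endoplasmic reticulum, were on the same side. Of 17 compared genes 16 lay above the rfk siRNA array, with a median of 0.33, 3 of them by 1.5-fold, and the tranylcypromine array was the highest of the 4 in 16. Hmgcs1, an early enzyme, had signals of 12655, 11817, 14309.8 and 13806 and stood at -0.05, Idi1, an isomerase, stood at 0.04, and Sqle, the FAD-dependent squalene epoxidase, had 4765, 4701, 5374 and 6102 and stood at 0.18. In these 3 the tranylcypromine and rfk siRNA arrays were both above the control. Pmvk, phosphomevalonate kinase, had signals of 1304, 1397, 1228 and 2137 and stood at 0.80. Of the late enzymes, Ebp, a sterol isomerase, had 2448, 3672, 3159 and 5892 and stood at 0.90, and Tm7sf2, a sterol reductase, had 613, 1019.7, 1218 and 2259 and stood at 0.89. Of the 10 genes with several probe sets, 4 had all of them on 1 side, and those of Fdft1, squalene synthase, ran from -0.21 to 0.55.

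Regulators and uptake genes of sterol metabolism were less uniform. Of 12 compared genes 8 were above and 4 below, with a median of 0.18. Scarb1, the receptor for high-density lipoprotein, had signals of 1039, 1054, 444 and 1104, so that the rfk siRNA array alone was low, and its 3 probe sets lay between 1.31 and 1.64. Insig1, which holds the sterol sensor in the endoplasmic reticulum, had signals of 2106, 1799, 1310.0 and 2169 and stood at 0.73, and Nr1h3, the oxysterol receptor, stood at 0.96 from signals of 103, 148, 73.2 and 142. In both the rfk siRNA array was again the lowest. Srebf2, the main transcription factor of the pathway, differed by -0.07, Mylip, which degrades the low-density lipoprotein receptor, by -0.04, and Stard4, a cholesterol carrier, by -0.02.

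In promoter windows of 14 cholesterol synthesis genes, the sterol element searched as TCACNCCAC on both strands stood in 1, Hmgcs1, against 1.32% of compared genes and 1.24% of windows. No match says only that these letters are not in this window. The CCAAT box, searched as CCAAT on both strands, stood in 14 of the 14, against 43.4% of compared genes and 37.4% of windows. Here too the share describes the list, whatever the arrays show, and not the difference. Among genes with a promoter window, the box stood in 70 of 176 called 2-fold higher (39.8%) and 46 of 105 called lower (43.8%). Both shares were near that of all compared genes. The Hmgcs1 window is shown, with the sterol element in capitals, because this gene was the only member not above the rfk siRNA array:
Hmgcs1 (chr13:119690174-119690262, plus strand): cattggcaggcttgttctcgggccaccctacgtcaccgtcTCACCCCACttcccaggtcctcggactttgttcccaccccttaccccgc

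Lipid droplet genes were lowest with rfk siRNA. Of 13 genes 7 were compared, all 7 lay above the rfk siRNA array, with a median of 0.61, and in all 7 that array was the lowest of the 4. Pnpla2, adipose triglyceride lipase, had signals of 239.6, 698, 197 and 963, high with tranylcypromine and aof2 siRNA and low on the others, a 4.90-fold difference. It was named from knowledge of the study. The droplet coat genes Plin4, Plin3 and Plin2 had signals of 1389.5, 1553, 667 and 1292, of 1456, 2018, 1236 and 2244 and of 2536, 2881, 2152 and 3277. They stood at 0.95, 0.86 and 0.61, and Plin4 on the tranylcypromine array was still below control. Lipe, hormone-sensitive lipase, was at 0.53. Fabp4, the fatty acid carrier of fat cells, had signals of 2463, 1301, 791 and 1093, so that both arrays were far below control and differed by 0.47. Abhd5, the coactivator of the lipase, stood at 0.04, a value that centring the arrays turned to -0.02.

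**Figure D4:**
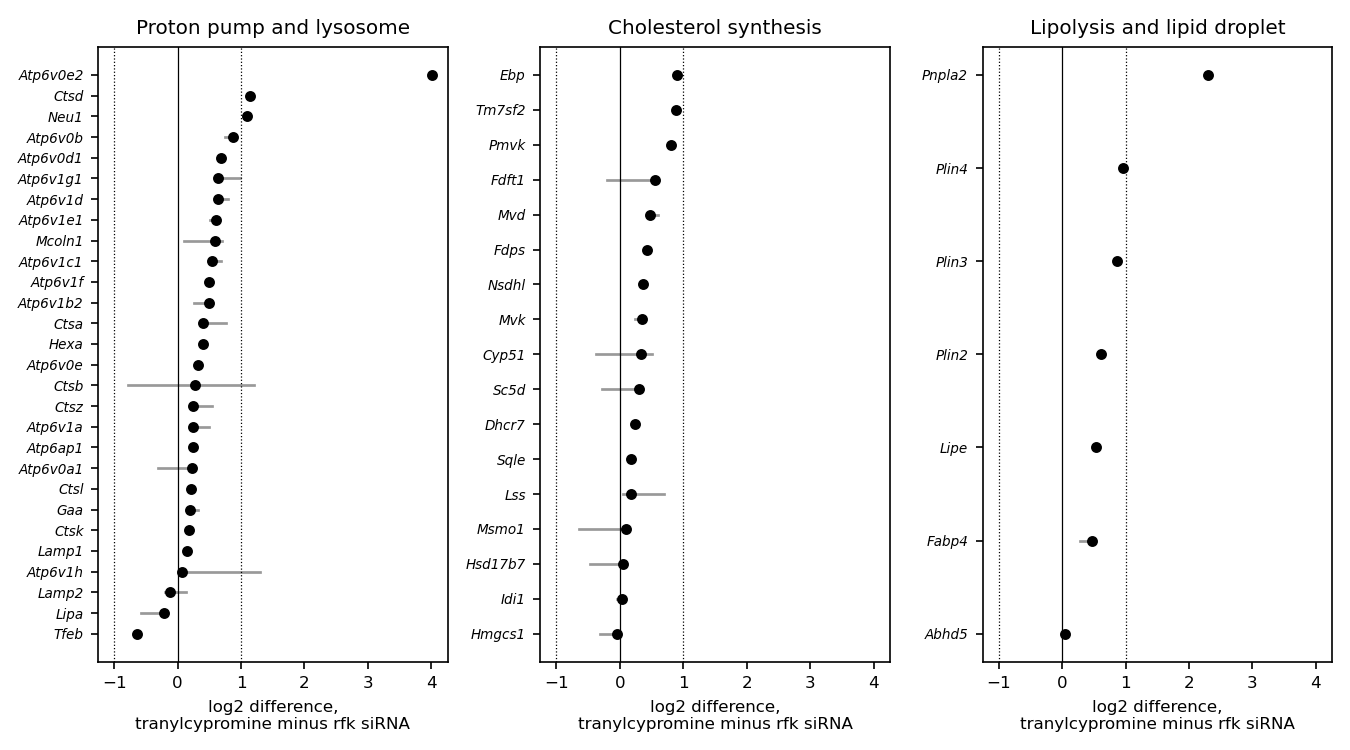
Log2 signal difference (tranylcypromine minus rfk siRNA) of each compared gene of 3 lists. Black points are the probe set that represents the gene, grey lines run over all its probe sets above the filter, and dotted lines mark 2-fold. The lists have 25 of 28, 16 of 17 and 7 of 7 genes to the right of 0.

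Genes of fuel burning differed by smaller amounts. Of 19 compared fatty acid oxidation genes 16 lay above, with a median of 0.14. Acaa2, a thiolase, had signals of 1159, 1750.0, 1204 and 1897 and stood at 0.66, and Acadl, a FAD-dependent acyl-CoA dehydrogenase, had 4242, 4593, 3582 and 5441 and stood at 0.60. Acadm, a related dehydrogenase, was at 0.49, while Acot2, a thioesterase, was at -0.72 and Hadhb, a subunit of the trifunctional protein, at -0.28. A further Acot2 probe set gave -0.003, and the 3 probe sets of Hadhb ran from -0.28 to 0.14. Of 40 respiratory chain and ATP synthase genes 35 were above and the tranylcypromine array was the highest in 32, yet the median was 0.13 and none was 1.5-fold higher or lower. The highest were Uqcrq and Uqcrc1 of complex III at 0.38 and 0.31, and the lowest Sdhd of complex II and Ndufs8 of complex I at -0.31 and -0.28. The 6 probe sets of Ndufs8 ran from -0.795 to 0.311, so its direction is not firm. Ppargc1a, a coactivator of mitochondrial genes, had signals of 91.0, 207, 288 and 349.9, above control on both arrays and apart by 0.28, with 5 probe sets from -0.12 to 0.59. Pdk4, which blocks pyruvate dehydrogenase, had signals of 2079.6, 3878, 2663 and 3271 and stood at 0.30, and Slc27a1, a fatty acid transporter, was at 0.47 with a further probe set at 1.88. These genes too were known from the study.

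Further regulators of energy expenditure had a median of -0.04 over 15 compared genes. Sirt1, an NAD-dependent deacetylase, had signals of 653, 527, 750.0 and 468 and stood at -0.68. Prkaa1, a catalytic subunit of AMPK, had 549, 782, 1057 and 662 and stood at -0.68, with rfk siRNA highest. The 2-fold differences in this list, Cox7a1 at 1.49 and Prdm16 at -1.13, had their dimmer signals of 35.0 and 28.3 below the filter. Esrra, a nuclear receptor of mitochondrial genes, stood at 0.58, with a dimmer probe set at -3.01, and the mean of both was -1.21.

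Sugar metabolism held single genes with large differences and a small median. Of 24 compared glycolysis and hypoxia genes 18 lay above, with a median of 0.12. Adm, the vasodilator adrenomedullin, was highest at 0.83 from dim signals of 71.1, 51.0, 52.8 and 93.8. Egln3, an oxygen-sensing hydroxylase, had 514, 419, 462 and 681 and stood at 0.56. Aldoa, an aldolase, had signals of 16817, 14646, 13459 and 17130.3 and stood at 0.35, and Pkm, pyruvate kinase, at 0.33. Pfkfb3, which makes the activator of phosphofructokinase, had signals of 114, 64.5, 126 and 38.4 and Ankrd37, a hypoxia-responsive gene, 244, 109.7, 184 and 89.9. They stood at -1.71 and -1.04, with the tranylcypromine array lowest in both, and the signal of Pfkfb3 there was below the filter. In glycogen metabolism the median over 10 genes was -0.02, with 5 on each side. Beside Ppp1r3c, the related targeting subunits Ppp1r3d and Ppp1r3b stood at -0.80 and -0.47, while Gyg, the primer glycogenin, had signals of 2516, 2973, 2309.9 and 3481 and stood at 0.59, and Phka1, a phosphorylase kinase subunit, was at 0.35.

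The synthesis of fatty acids and triglyceride had a median of 0.10 over 18 compared genes, with 13 above. Acss2, which activates acetate, was highest at 0.41, followed by Scd1, a desaturase, with signals of 7525, 8663, 8965 and 11529 and a difference of 0.36, and Fasn, fatty acid synthase, at 0.33. Thrsp, a lipogenic nuclear protein, was lowest at -0.68 from dim signals of 97.8, 46.5, 85.0 and 53.1, and Lpin1, a phosphatidate phosphatase, was at -0.18. Adipogenic transcription factors had a median of -0.02 over 22 compared genes, with 10 above and 12 below. Klf5, an early factor, had signals of 816, 1957, 1159 and 1820.0 and stood at 0.65, and Stat5b was at 0.48. Pparg, the central receptor of fat cell formation, had 1047, 963, 615 and 771, below control on both arrays, and stood at 0.33. Cebpb and Cebpa stood at -0.05 and 0.26. Ebf1, a further factor, was at -0.63 and Zfp423, a marker of fat cell commitment, at -0.59, each lowest with tranylcypromine. Of 18 mature adipocyte markers 8 were compared, with a median of 0.12. Lpl, lipoprotein lipase, had signals of 5272, 3919, 5317 and 3808 and stood at -0.48, and Retn, resistin, and Gpd1, glycerol-3-phosphate dehydrogenase, were at -0.72 and -0.61 from dim signals. Adipoq and Lep lay below the filter.

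Genes of preadipocytes leaned the other way. Of 24 compared preadipocyte and anti-adipogenic genes 7 lay above and 17 below, with a median of -0.20, and 5 were 1.5-fold lower against 3 higher. Sox9, a transcription factor of progenitors, had signals of 915, 1023, 1491 and 862 and stood at -0.79. Tcf7l1, a Wnt-pathway factor, had 3261, 4193, 4359 and 2776 and stood at -0.65, and its relative Tcf7l2 at -0.53. In Sox9 and Tcf7l1 the rfk siRNA array was the highest of the 4 and the tranylcypromine array the lowest. Dlk1, the classical preadipocyte factor, had signals of 6917, 8616, 9129 and 7817 and stood at -0.22. Against the trend, Twist2 had signals of 3335, 3866, 2918 and 4625 and stood at 0.67, and Snai2, a further repressor of this kind, had 4157, 7993, 5113 and 9793 and stood at 0.94. The Snai2 result rests on 1 probe set, since its other one gave -0.98.

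Of 12 compared genes of Id proteins and BMP signalling 8 lay below and 2 were 2-fold lower, with a median of -0.15. They were Id4 and Bambi, a decoy receptor with signals of 138, 142, 192 and 84.1 and a difference of -1.20. The other Id genes went against Id4. Id1 had signals of 7539, 7558, 8271 and 10261 and stood at 0.31, Id2 at 0.20 and Id3 at 0.16. Grem1, a secreted BMP antagonist, was at 0.36.

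Inflammatory genes lay slightly lower with tranylcypromine. Of 18 compared genes 7 were above and 11 below, with a median of -0.19. Saa3, an acute phase protein, had signals of 301, 156, 401 and 145 and was 2.76-fold lower. The chemokine gene Cxcl1 had signals of 2296, 1274, 1769.9 and 1125 and stood at -0.65, and Ccl5 had 149, 191, 193 and 101 and stood at -0.94. Il6 and Lcn2 stood at -0.04 and -0.02. Cxcl12, a chemokine of stromal cells, had signals of 8706, 12229, 8724 and 13026, high with tranylcypromine and aof2 siRNA and level on the others. It stood at 0.58, with a further probe set at 0.06. Ccl8 stood at 0.78. Several members, among them Ccl2 with 1121, 656, 692 and 852 and Il11 with 289, 112, 107 and 121, were lower on both arrays than with control siRNA.

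Interferon-responsive and RNA-sensing genes were looked at because a transfected RNA can call on them. Of 36 such genes 20 were compared, 10 were above and 10 below, with a median close to 0. Bst2, an antiviral membrane protein, had signals of 198, 341, 230.3 and 496, and Isg20, an exonuclease, 413, 431, 214 and 458, and both were 2-fold higher with tranylcypromine. Gbp2, a guanylate-binding protein, and Tap1, a peptide transporter, stood at -0.97 and -0.92, with dim signals of 121, 98.5, 138 and 70.4 and of 53.2, 70.4, 91.1 and 48.1. The sensor genes Ddx58, Eif2ak2 and Tlr3 stood at 0.01, -0.01 and 0.08. Mx1, Oas1a and Ifit3 lay below the filter.

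Cell division genes were slightly lower with tranylcypromine. Of 33 S phase genes 27 lay below the rfk siRNA array, with a median of -0.19, and 1, the cyclin gene Ccne2 with signals of 1514, 967, 1511 and 879.5, was 1.5-fold lower. Cdc6, which loads the replicative helicase, had signals of 692, 347, 668 and 453 and stood at -0.56. In both the tranylcypromine and aof2 siRNA arrays were the low pair. Mcm5, a helicase subunit, had 7055, 5239, 6522 and 5289 and stood at -0.30, while Tyms was at 0.41 from dim signals and the cyclin gene Ccne1 at 0.31. Of 34 genes of G2 and mitosis 24 lay below, with a median of -0.14 and 2 of them 1.5-fold lower. Kif11, a spindle motor, had signals of 1442, 1065, 1673 and 982 and stood at -0.77, with probe sets from -1.46 to -0.23. Cenpe, a kinetochore motor, stood at -1.14, with a further probe set at -0.14. Mki67 and Cdk1 differed by -0.05 and -0.12, and Nusap1, a spindle protein, had signals of 2440.3, 3679.5, 2989.7 and 4038 and stood at 0.43. The phosphatase gene Cdc25b was at 0.48.

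Matrix genes split by kind. Of 20 compared proteoglycan, hyaluronan and matrix protease genes 13 lay below, with a median of -0.39, the lowest of the lists compared, and 6 were 1.5-fold lower against 1 higher. Has2, the main hyaluronan synthase, had signals of 1920.1, 1638, 1896 and 549 and was 3.45-fold lower, with both probe sets between -1.79 and -1.21. Prg4, lubricin, had signals of 1063, 732, 753 and 307 and was 2.45-fold lower, and Tnfaip6, which modifies hyaluronan, had 869, 699.7, 792 and 442 and stood at -0.84. For these 3 the tranylcypromine array was the lowest and the other 3 arrays lay higher. Cd44, the hyaluronan receptor, had 4838, 5583, 7420.0 and 5197 and stood at -0.51, here with rfk siRNA highest. Adamts1, a protease, was at -0.86 and Mmp2, a gelatinase, at -0.57. Aspn, the proteoglycan asporin, went the other way at 0.60, as did Mmp11, a metalloproteinase, at 0.37, and Bgn, biglycan, stood at 0.17.

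Collagens and their modifying enzymes had a median of 0.03 over 24 compared genes, and no member was 2-fold apart. Col12a1 and Col5a2, of fibril surfaces and of thin fibrils, stood at -0.80 and -0.60, with signals of 9163, 8230.2, 7704 and 5074 for the latter. Col8a1, a short-chain collagen, was highest at 0.94 from dim signals of 31.1, 112, 55.5 and 107, and Col18a1, of basement membranes, was at 0.71. Col1a1 had signals of 1438, 983, 715 and 729, below control on both arrays and level between them. Actin and smooth muscle genes had a median of 0.10 over 19 genes with none 1.5-fold apart, from Acta2 and Des at -0.30 and -0.25 to Myl9, a myosin light chain, at 0.41 and Actn1, an actin crosslinker, at 0.55. The CCN and YAP target list had a median of -0.03 over 16 genes, with 8 on each side. Beside Ccn1, Thbs1, a matricellular protein, was at -0.58, and Tead4, a partner of YAP, and Axl, a receptor kinase, at 0.68 and 0.54.

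Stress programmes held a few large differences without a common shift. Of 21 compared p53 targets and sestrins 10 lay above and 11 below, with a median of -0.12. Sesn2 and Fas were 2-fold lower, whereas the p53 targets Cdkn1a, a cell cycle inhibitor, and Mdm2, its ubiquitin ligase, stood at 0.33 and 0.11. Plk3, a stress kinase, was highest at 0.88 from dim signals of 58.4, 54.8, 65.7 and 121, followed by Tigar, a fructose bisphosphatase, at 0.46. The 3 probe sets of Tigar ran from -0.55 to 0.50. Of 32 genes of the ATF4 and unfolded protein responses 16 lay on each side, with a median of -0.01. Cth, which makes cysteine, had signals of 2028, 1595, 2750.1 and 1277 and was 2.15-fold lower, while Chac1, which degrades glutathione, was at 0.48, Phgdh, which starts serine synthesis, at 0.41 and Atf4 itself at -0.02. Heat shock genes had a median of 0.12 over 20 genes, with 16 above and 3 of them 1.5-fold higher. Hspa4l, a chaperone, had signals of 829, 1012, 607 and 2069.5 and stood at 1.77, with 5 probe sets from -0.08 to 1.78. The small heat shock genes Cryab and Hspb1 had 2857, 4569, 2903 and 5475 and 675, 1267, 600.4 and 1099, and stood at 0.92 and 0.87. In both the tranylcypromine and aof2 siRNA arrays were the high pair. The lowest were the cochaperone gene Bag3 at -0.14 and the chaperonin gene Cct3 at -0.07. Of 24 NRF2 and glutathione genes 17 lay above, with a median of 0.11, from Cat, catalase, and Gstm1, a glutathione transferase, at -0.48 and -0.28 to Gsr, glutathione reductase, and Ephx1, an epoxide hydrolase, at 0.56 and 0.74.

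Genes of the inducing cocktail were looked at last. Dexamethasone acts through the glucocorticoid receptor, and 21 compared glucocorticoid-induced genes had a median of 0.14, with 13 above and 8 below. Fkbp5, a chaperone of the receptor, had signals of 7671, 11054, 7352 and 11080.0 and stood at 0.59, and the metallothionein gene Mt1 had 21267, 23841, 17194 and 25395 and stood at 0.56. Sgk1, a kinase, had 4808, 4048, 6235 and 3769, highest with rfk siRNA, and stood at -0.73, and Cebpd was at -0.58. Isobutylmethylxanthine raises cAMP, and 26 immediate early and cAMP-induced genes had a median of -0.14, with 11 above and 15 below. Hbegf, a growth factor, had signals of 196, 172, 103 and 229 and was 2.21-fold higher, and Crem, a cAMP-responsive factor, was at 0.80. Fos had signals of 193, 279.5, 436 and 209, highest with rfk siRNA, and was 2.09-fold lower. Egr1 had 722, 1315, 1826 and 1368 and stood at -0.42, above control on both arrays. The 21 compared ribosomal protein genes, taken as a reference, ran from Rpl12 at -0.30 and Rps6 at -0.17 to Rplp0 at 0.15 and Rpl14 at 0.19, with a median of 0.03.

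**Figure D5:**
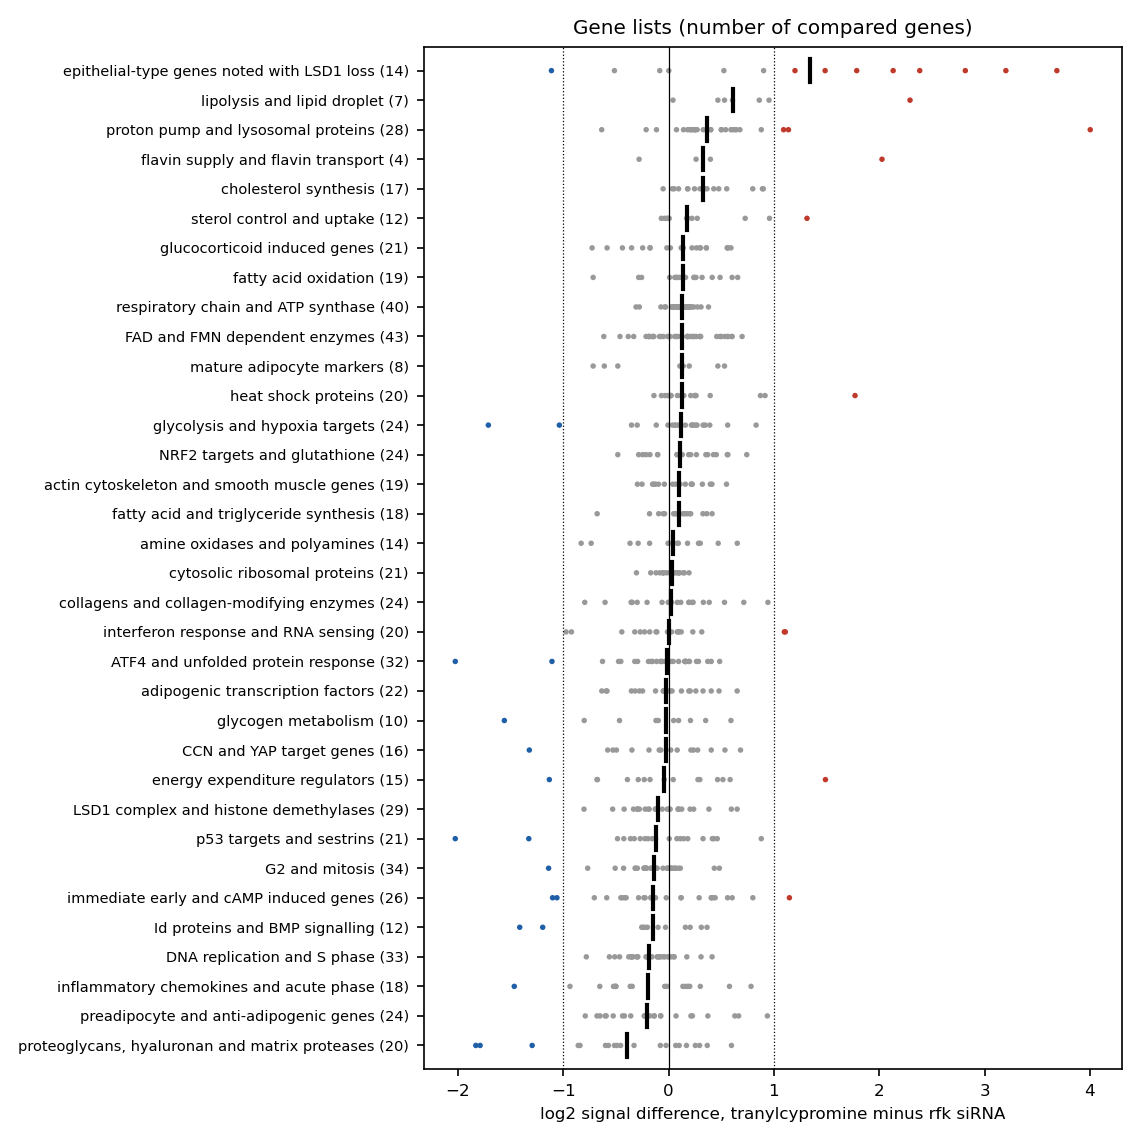
Log2 signal difference (tranylcypromine minus rfk siRNA) of the compared genes of 34 lists, 1 point per gene, with black bars at the list medians and dotted lines at 2-fold. The number of compared genes stands in brackets. Medians run from -0.39 for proteoglycans, hyaluronan and matrix proteases to 0.61 for lipolysis and lipid droplet, and 1.34 for the epithelial-type list, which was drawn from these arrays.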

How the data were processed

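The authors' deposited table holds a linear intensity for each of 45101 probe sets of a mouse Affymetrix array on 4 arrays, made with MAS5 per the submitters' processing notes. Neither its version nor its scaling target is given in the sources used here, and detection calls were not used. The platform annotation gave 1 gene symbol for 34958 probe sets, several for 932 and none for 9211, and probe sets with several or none were not used. Of the former, 34754 were found in RefSeq GRCm38.p6.

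The deposited signals were put on a log2 scale. The number of arrays limits the precision: with 1 per group no spread, error or test could be had, and differences were described by counts at 2-fold and 1.5-fold and by list medians. The text names the 15 genes highest and the 15 lowest whose brighter array reached the 75th percentile of signal (414), 8 bright genes each way with the other arrays between, the 2 highest and the 2 lowest of each list, the targets, and further members with a known role. Members and lists were chosen with earlier results of these data known. Crat, which carries no flavin, was taken out of the flavin enzyme list after its value had been seen. Alternatives changed the centring, the offset, the filter, the probe set and the limit. The code was tested on simulated data and run with pandas 2.3.3 and NumPy 2.4.6 under Python 3.11.15, with figures from matplotlib 3.10.9.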

Additional observations from a re-analysis of the deposited data

How the results depend on the processing

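The counts of 246 higher and 146 lower genes moved most with the filter: 2139 and 1669 without one, 62 and 34 with the mean signal at the 75th percentile or above. At 1.5-fold they were 849 and 599, and 55 and 40 where several probe sets had to differ in 1 direction. Centring each array gave 204 and 167, quantile scaling 245 and 153, and an offset of 16 gave 186 and 105. Of list medians at least 0.1 from 0, 182 values under the alternatives kept their sign and 2 turned, both without a filter: Id and BMP genes at 0.10 and p53 targets at 0.006. Of medians within 0.1 of 0, 12 values in 7 lists turned and 68 kept their sign, so those lists carry no direction. Of the values of named genes, 13 in 11 genes turned sign and 1238 did not. Snai2 was at -0.024 as the mean of its probe sets and at -0.98 without shared probe sets, and Esrra at -1.21 as such a mean. Without shared probe sets Malat1 was at 0.50 by the brightest of those left, while the others gave -0.56 and -1.32. The cause of these turns was not tested. No paired analysis was possible because each group had 1 array. Signals near or below 50.9 limit the size of a difference.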

Other observations

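Some genes had probe sets that disagreed, given here with the tranylcypromine signal before the rfk siRNA signal. For Malat1 the 3 brightest probe sets read 5989.5 against 24819.8, 4211 against 19939.6 and 1514 against 12888, while another read 1363 against 966. For Snai2 the probe sets read 9793 against 5113 and 952 against 1885. For Esrra they read 697 against 465 and 15.4 against 124. Pappa, Flnc, Hspa4l, Cenpe, Sesn2 and Slc27a1 also had a probe set well away from the one that represents the gene. Of the 64 genes at least 2-fold higher that had several probe sets, 55 had all of them above 0 and 26 had all of them at 2-fold. Of the 49 such lower genes, 40 and 15 did.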
